A study of Danio rerio with 16 samples.

Results

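The genes described here are 38 enzyme genes of glycolysis and gluconeogenesis in the zebrafish, chosen by name from a table of RNA sequencing counts that lists 32520 genes. They cover each step between glucose and lactate and, of the steps particular to gluconeogenesis, phosphoenolpyruvate (PEP) carboxykinase and fructose-1,6-bisphosphatase, with most enzymes present as paired zebrafish copies. All 38 members were in the table, and all 38 passed the filter on low counts, as did 23555 genes in all. The libraries came from *fbn3*-/- and wild-type (WT) embryos at 1 and 2 days post fertilization (dpf), with 10 whole embryos pooled in each. *fbn3* is a fibrillin gene, coding for a large glycoprotein of extracellular microfibrils, and it carries the symbol *fbn2b* in the count table. There were 3 libraries of *fbn3*-/- embryos and 4 of WT embryos at 1 dpf, and 5 libraries of *fbn3*-/- embryos and 3 of WT embryos at 2 dpf. The labels give the genotypes as *fbn2b* -/- and *fbn2b* +/+ and name no allele, and they do not say whether different libraries came from different clutches, so that p-values measure the spread between these pools. The study asked how the transcriptome of embryos without this fibrillin differs from that of WT embryos.

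Glycolysis splits glucose into pyruvate and yields ATP and NADH, and lactate dehydrogenase turns pyruvate into lactate when NADH has to be reoxidized. Gluconeogenesis runs the same reversible steps backwards and replaces the irreversible ones by its own enzymes, among them PEP carboxykinase and fructose-1,6-bisphosphatase. Most steps are shared by several paralogues whose mammalian counterparts are named for the tissue where they dominate, such as muscle, liver or brain, and the zebrafish embryo lives on its yolk during the stages sampled here.

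Levels are given as CPM, the counts scaled to the effective size of the library, which compares libraries but not the levels of different genes. Total counts ran between 66070904 and 101620834 in *fbn3*-/- libraries at 1 dpf and between 41473603 and 77233445 in WT libraries at 1 dpf. At 2 dpf they ran between 52451122 and 179887580 in *fbn3*-/- libraries and between 87748238 and 134038214 in WT libraries. The targeted gene averaged 23.9 ± 4.65 CPM in *fbn3*-/- embryos and 194 ± 100.1 CPM in WT embryos at 1 dpf (SD, n = 3 and 4), and 18.5 ± 2.1 CPM in *fbn3*-/- embryos and 211 ± 41.3 CPM in WT embryos at 2 dpf (SD, n = 5 and 3). Stage separated the libraries along the first dimension of a multidimensional scaling (54.5% of the variance), and the second dimension (11.7%) separated libraries with lower from those with higher library numbers. The labels do not name these number sets a batch. All 3 *fbn3*-/- libraries at 1 dpf carry lower numbers, whereas the WT libraries at 1 dpf include replicates 1 and 2 with lower numbers and replicates 4 and 5 with higher ones.

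Stage changed the members far more than genotype did in the counts of called genes. The members together took up 0.750 ± 0.014% of the counted reads in *fbn3*-/- embryos and 0.744 ± 0.012% in WT embryos at 2 dpf (SD, n = 5 and 3), against 0.424 ± 0.047% in *fbn3*-/- embryos and 0.512 ± 0.135% in WT embryos at 1 dpf (SD, n = 3 and 4). The 2 dpf ranges of this share lay above the 1 dpf ranges in both genotypes. In summed CPM of the members, the *fbn3*-/- stages did not overlap, but the WT stages did. WT replicate 1 at 1 dpf had 7968 CPM, and WT replicates 2, 4 and 5 had 5642, 4238 and 4207 CPM. The WT libraries at 2 dpf had 7547, 6666 and 7214 CPM. Each gene was tested with edgeR's quasi-likelihood test and Benjamini-Hochberg adjustment over all 23555 genes, and a gene was called when its adjusted p was under 0.05. Between 2 dpf and 1 dpf, 26 of 38 members rose and 4 fell in *fbn3*-/- embryos, where 29.2% of all tested genes rose and 27% fell. In WT embryos 23 members rose and 3 fell, where 27% of all tested genes rose and 27.6% fell. The median log2 fold change of the members was 1.14 in *fbn3*-/- embryos and 0.79 in WT embryos, beside 0.00 and -0.04 over all tested genes. The values of 2 dpf and 1 dpf libraries did not overlap for 29 members in *fbn3*-/- embryos (56.3% of all tested genes) and for 21 in WT embryos (49.7%). These embryos were sampled whole, and more cells of a type cannot be told apart from more RNA per cell.

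The stage contrasts in *fbn3*-/- and in WT embryos share no library, and 22 members rose in both. *hk1*, *pck2* and *fbp1b* fell in both, although their WT calls were each lost under an alternative described with the gene. *hk2*, *gpia*, *tpi1b* and *pgam1a* passed the test upwards in *fbn3*-/- embryos alone, *gck* did so in WT embryos alone, and *pfklb* passed it downwards in *fbn3*-/- embryos alone. The other 7, namely *aldoaa*, *aldoab*, *aldoca*, *pklr*, *ldhba*, *pck1* and *fbp1a*, passed in neither. For no member did the test of the difference between the stage changes give an adjusted p under 0.05, as described further on, so that a call in one genotype alone is not shown to be particular to it.

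Some stage calls rested on single libraries. In WT embryos, the call of *pfkmb* was lost without WT replicate 2, 4 or 5 at 1 dpf or WT replicate 1 at 2 dpf, and those of *pgam2* and *eno3* without WT replicate 4 or 5 at 1 dpf or WT replicate 1 at 2 dpf. The call of *ldha* in WT embryos was lost without WT replicate 5 at 1 dpf or WT replicate 3 at 2 dpf. In *fbn3*-/- embryos, the call of *pgam1a* was lost without *fbn3*-/- replicate 1, 2 or 3 at 1 dpf or *fbn3*-/- replicate 1 at 2 dpf. With lower library numbers only, which leave 1 WT library at 2 dpf, the median log2 fold change of the members in WT embryos was 0.56. Fewer of all tested genes were called in that fit. There *hk1*, *gck*, *gpib*, *pfkma*, *pfkmb*, *pfkpa*, *aldocb*, *gapdh*, *pgk1*, *pgam2*, *eno1a*, *eno3*, *ldha*, *ldhbb* and *pck2* were not called in WT embryos. Leaving out a library also made calls. As higher at 2 dpf in WT embryos, *gpia* and *fbp1a* were called without WT replicate 1 at 1 dpf, and *tpi1b* and *pgam1a* without that library, WT replicate 2 at 2 dpf or *fbn3*-/- replicate 5 at 2 dpf. As lower at 2 dpf in WT embryos, *aldoaa* was called without WT replicate 4 at 1 dpf, *aldoab* without WT replicate 5 at 1 dpf, *ldhba* without WT replicate 4 or 5 at 1 dpf, and *pfklb* without WT replicate 4 at 1 dpf or WT replicate 3 at 2 dpf. Without WT replicate 1 at 2 dpf, *hk2* was called as lower and *pck1* as higher in WT embryos. In *fbn3*-/- embryos, *aldoaa* was called as lower without WT replicate 1 or 4 at 1 dpf and *gck* as higher without WT replicate 2 at 2 dpf, although these WT libraries are not part of that contrast.

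**Figure D1:**
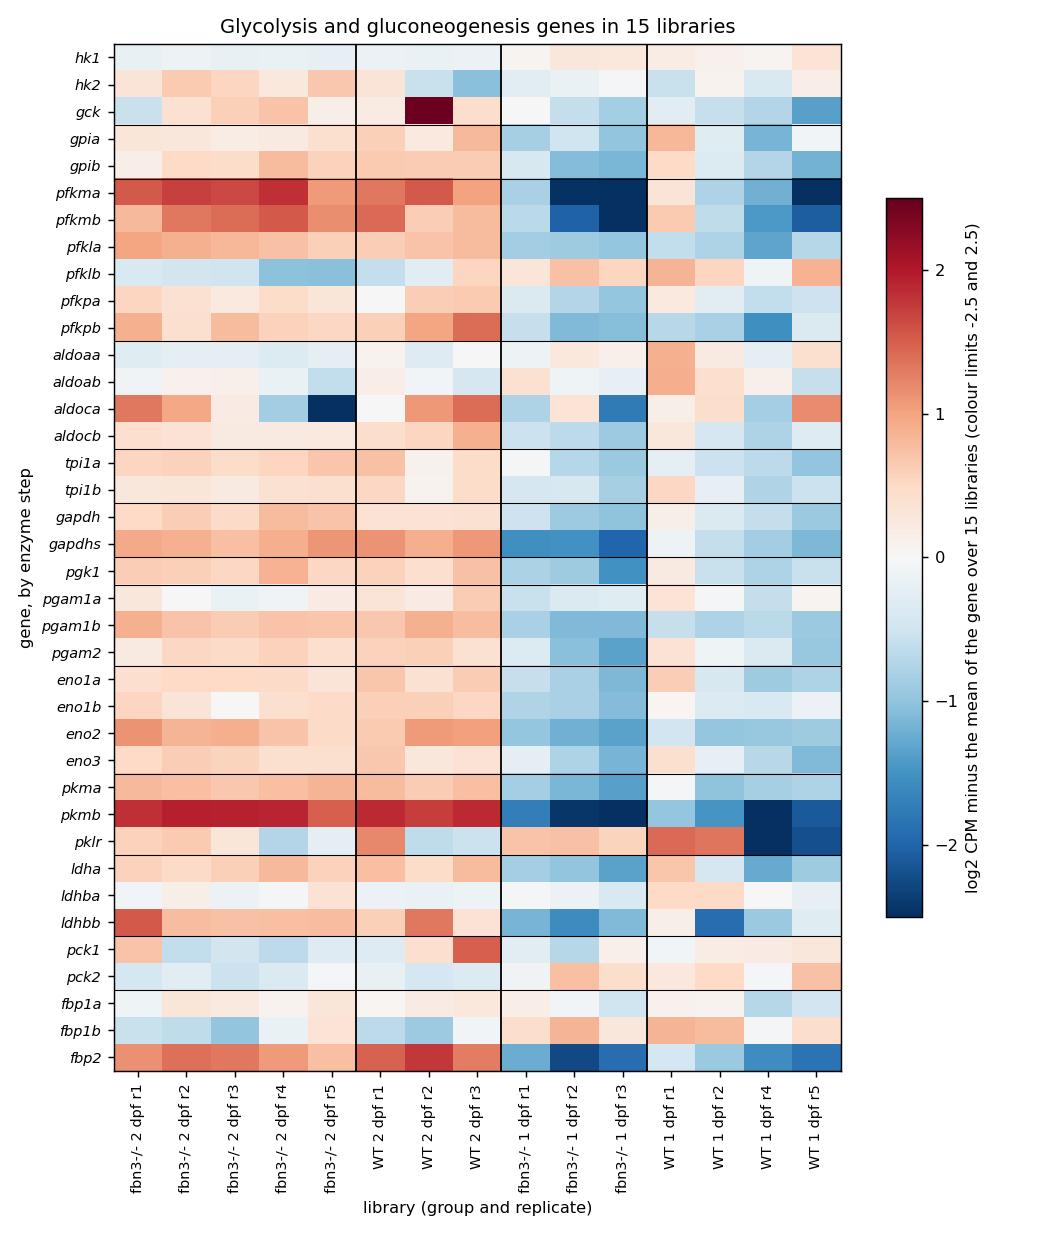
Level of the 38 genes in each library, as log2(CPM + 0.01) minus the gene's mean over the 15 libraries, with genes in the order of the pathway down the page and libraries grouped as fbn3-/- 2 dpf, WT 2 dpf, fbn3-/- 1 dpf and WT 1 dpf. Most genes are above their mean in the 2 dpf columns, while hk1 is above it in all 7 libraries at 1 dpf, and pklr is low in WT 1 dpf replicates 4 and 5.

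The first step, phosphorylation of glucose by hexokinases, did not move as one. Hexokinase 1 is the broadly expressed form, hexokinase 2 the form of mammalian insulin-responsive tissues such as muscle, and glucokinase the low-affinity form of liver and pancreatic beta cells. *hk1* was at 107, 112, 106, 108 and 106 CPM in *fbn3*-/- embryos at 2 dpf, against 127, 147 and 146 CPM in *fbn3*-/- embryos at 1 dpf. The WT embryos had 109, 108 and 109 CPM at 2 dpf, against 138, 131, 128 and 154 CPM at 1 dpf. The 2 dpf values of *hk1* were all below the 1 dpf values in each genotype, with a log2 fold change of -0.38 (SE 0.08, adjusted p = 7.79e-04) in *fbn3*-/- embryos and of -0.34 (SE 0.08, adjusted p = 0.00316) in WT embryos. The WT call was lost in a fit of the WT libraries alone (adjusted p = 0.0541), with lower library numbers only (adjusted p = 0.153) and without TMM scaling (adjusted p = 0.114).

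*gck* was at 0.515, 0.994, 1.17, 1.26 and 0.847 CPM in *fbn3*-/- embryos at 2 dpf, against 0.759, 0.504 and 0.419 CPM in *fbn3*-/- embryos at 1 dpf. Its values in WT embryos were 0.875, 4.21 and 1.04 CPM at 2 dpf, against 0.634, 0.506, 0.457 and 0.29 CPM at 1 dpf. The 2 dpf values of *gck* in WT embryos were above all their 1 dpf values and varied widely, replicate 2 being far above the others, while the stages overlapped in *fbn3*-/- embryos. *gck* had a log2 fold change of 0.87 (SE 0.54, adjusted p = 0.187) in *fbn3*-/- embryos and of 2.08 (SE 0.54, adjusted p = 0.00397) in WT embryos. In a fit of the *fbn3*-/- libraries alone, which called 59.8% of all tested genes, *gck* was called as higher at 2 dpf. Without WT replicate 2 at 2 dpf the WT value was 1.07 (adjusted p = 0.0218). With lower library numbers only, the WT value was 0.70 (adjusted p = 0.324), and the call was lost.

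*hk2* was at 19.6, 24.6, 22.6, 18.8 and 25.2 CPM in *fbn3*-/- embryos at 2 dpf, against 12.8, 13.9 and 15.4 CPM in *fbn3*-/- embryos at 1 dpf. In WT embryos it was at 19.7, 10.6 and 7.63 CPM at 2 dpf, against 10.6, 16.7, 12.1 and 17.6 CPM at 1 dpf. All 5 *fbn3*-/- libraries at 2 dpf were above the 3 at 1 dpf, and the WT stages overlapped. *hk2* had a log2 fold change of 0.65 (SE 0.24, adjusted p = 0.032) in *fbn3*-/- embryos and of -0.18 (SE 0.25, adjusted p = 0.575) in WT embryos. The call in *fbn3*-/- embryos lay close to the threshold: it was lost without *fbn3*-/- replicate 1, 2 or 3 at 1 dpf (adjusted p = 0.0974, 0.0809 and 0.0548) and without *fbn3*-/- replicate 2, 3 or 5 at 2 dpf (adjusted p = 0.0596, 0.0502 and 0.0533).

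Phosphoglucose isomerase, which interconverts glucose 6-phosphate and fructose 6-phosphate, has the copies *gpia* and *gpib*. *gpib* rose in both genotypes, by 1.36 on the log2 scale in *fbn3*-/- embryos and 0.94 in WT embryos (adjusted p = 8.69e-04 and 0.0105). *gpia* had a log2 fold change of 1.04 in *fbn3*-/- embryos and 0.57 in WT embryos (adjusted p = 0.00758 and 0.116).

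Phosphofructokinase commits sugar to glycolysis, and its genes are named for the muscle (*pfkma*, *pfkmb*), liver (*pfkla*, *pfklb*) and platelet (*pfkpa*, *pfkpb*) forms of mammals. The muscle-type pair had the largest rises of the 6 in *fbn3*-/- embryos. *pfkma* was at 60.8, 69, 65.5, 74.2 and 44.1 CPM in *fbn3*-/- embryos at 2 dpf, against 12, 3.76 and 1.69 CPM in *fbn3*-/- embryos at 1 dpf. The WT embryos had 52, 60.4 and 42.3 CPM at 2 dpf, against 26.2, 12.4, 9.15 and 2.47 CPM at 1 dpf. Every 2 dpf library was above every 1 dpf library of its genotype, with a log2 fold change of 3.45 (SE 0.63, adjusted p = 2.33e-04) in *fbn3*-/- embryos and of 2.04 (SE 0.56, adjusted p = 0.00584) in WT embryos. With lower library numbers only, the WT value was 1.5 (adjusted p = 0.160) and was no longer called.

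*pfkmb* was at 91.1, 130.5, 136, 151 and 117 CPM in *fbn3*-/- embryos at 2 dpf, against 32.6, 12.9 and 7.05 CPM in *fbn3*-/- embryos at 1 dpf. Its values in WT embryos were 139.9, 79.8 and 90.01 CPM at 2 dpf, against 82.5, 33.8, 19.2 and 12.5 CPM at 1 dpf. The stages did not overlap in *fbn3*-/- embryos, and in WT embryos replicate 1 at 1 dpf reached into the 2 dpf range. *pfkmb* had a log2 fold change of 2.85 (SE 0.57, adjusted p = 5.37e-04) in *fbn3*-/- embryos and of 1.48 (SE 0.52, adjusted p = 0.0246) in WT embryos.

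The liver-type copies moved apart in *fbn3*-/- embryos. *pfkla* was at 12.1, 11.4, 10.8, 10.2 and 9.23 CPM in *fbn3*-/- embryos at 2 dpf, against 3.33, 3.3 and 3.12 CPM in *fbn3*-/- embryos at 1 dpf. In WT embryos it was at 9.37, 9.98 and 10.5 CPM at 2 dpf, against 4, 3.6, 2.44 and 3.75 CPM at 1 dpf. *pfkla* was higher in every 2 dpf library than in any 1 dpf library of the same genotype, with a log2 fold change of 1.73 (SE 0.15, adjusted p = 2.45e-07) in *fbn3*-/- embryos and of 1.55 (SE 0.15, adjusted p = 7.08e-07) in WT embryos.

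*pfklb* was at 36.9, 34.8, 34.3, 23.7 and 23.5 CPM in *fbn3*-/- embryos at 2 dpf, against 59.8, 79.9 and 69.95 CPM in *fbn3*-/- embryos at 1 dpf. The WT embryos had 31.9, 40.1 and 69.7 CPM at 2 dpf, against 87.3, 70.3, 44.4 and 87.9 CPM at 1 dpf. *pfklb* fell in *fbn3*-/- embryos, without overlap, while the WT stages overlapped. It had a log2 fold change of -1.19 (SE 0.25, adjusted p = 7.62e-04) in *fbn3*-/- embryos and of -0.61 (SE 0.27, adjusted p = 0.0646) in WT embryos. In WT embryos it was called as lower with the likelihood ratio test and with the replicate block. The WT log2 ratio of the stage means was -1.31 within the lower and -0.27 within the higher library numbers. Within the lower numbers, that of *fbn3*-/- embryos was -0.985.

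*pfkpb* was at 9.3, 6.57, 8.7, 7.46 and 7.14 CPM in *fbn3*-/- embryos at 2 dpf, against 3.33, 2.32 and 2.38 CPM in *fbn3*-/- embryos at 1 dpf. Its values in WT embryos were 7.62, 9.86 and 13.2 CPM at 2 dpf, against 3.1, 2.85, 1.73 and 3.9 CPM at 1 dpf. *pfkpb* rose in both genotypes without overlap, with a log2 fold change of 1.55 (SE 0.24, adjusted p = 5.42e-05) in *fbn3*-/- embryos and of 1.86 (SE 0.24, adjusted p = 1.04e-05) in WT embryos.

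*pfkpa* was at 62, 55.9, 50.3, 58.8 and 52.4 CPM in *fbn3*-/- embryos at 2 dpf, against 33.5, 25.9 and 22 CPM in *fbn3*-/- embryos at 1 dpf. In WT embryos it was at 43, 65.5 and 67.6 CPM at 2 dpf, against 50.8, 34.9, 27.9 and 29.8 CPM at 1 dpf. The stages did not overlap in *fbn3*-/- embryos and overlapped in WT embryos. *pfkpa* rose in both, with a log2 fold change of 1.05 (SE 0.20, adjusted p = 3.68e-04) in *fbn3*-/- embryos and of 0.71 (SE 0.20, adjusted p = 0.00683) in WT embryos. In WT embryos the log2 ratio of the stage means was 0.004 within the lower and 1.21 within the higher library numbers, and with lower library numbers only the WT call was lost.

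Aldolase cleaves fructose 1,6-bisphosphate, and in mammals the A form dominates in muscle and the C form in brain. Among its 4 genes *aldocb* rose, by 0.99 on the log2 scale in *fbn3*-/- embryos and 0.89 in WT embryos (adjusted p = 2.80e-04 and 7.06e-04). The A-type copies did not pass the test in either genotype, although in WT embryos both were called as lower with the replicate block and *aldoaa* also with the likelihood ratio test. In *fbn3*-/- embryos the stages of *aldoaa* did not overlap. A fit of the *fbn3*-/- libraries alone, which called 59.8% of all tested genes, called it as lower. The log2 fold changes of the A-type copies were -0.36 and -0.15 in *fbn3*-/- embryos, and -0.45 and -0.41 in WT embryos, for *aldoaa* and *aldoab* in that order. *aldoca*, also not called, was the member that no longer passed the filter when at least 1 CPM in 3 libraries was required.

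The steps from triosephosphate isomerase to enolase rose nearly throughout. Triosephosphate isomerase, glyceraldehyde-3-phosphate dehydrogenase (GAPDH), phosphoglycerate kinase, phosphoglycerate mutase and enolase have 12 genes among the members, all 12 of which rose in *fbn3*-/- embryos. In WT embryos 10 of the 12 rose, and *tpi1b* and *pgam1a* had log2 fold changes of 0.52 and 0.43 (adjusted p = 0.0561 and 0.0517). Both were called as higher in WT embryos with the other scalings and filters, DESeq2, limma-voom and the likelihood ratio test. A term for the set of library numbers also made both calls. Neither was called with the replicate block or in a fit of the WT libraries alone. The neuronal enolase *eno2* rose by 1.99 on the log2 scale in *fbn3*-/- embryos and 1.74 in WT embryos (adjusted p = 1.94e-07 and 5.38e-07), and the muscle enolase *eno3* by 1.18 and 0.74 (adjusted p = 0.0015 and 0.0281). *gapdhs*, whose mammalian counterpart is the GAPDH of sperm, showed the largest rise of these 12 in *fbn3*-/- embryos.

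*gapdhs* was at 506, 485, 445, 495 and 568 CPM in *fbn3*-/- embryos at 2 dpf, against 91.2, 91.6 and 66.7 CPM in *fbn3*-/- embryos at 1 dpf. The WT embryos had 575, 494 and 557 CPM at 2 dpf, against 240.2, 174, 144 and 121 CPM at 1 dpf. The stages did not overlap in either genotype. *gapdhs* had a log2 fold change of 2.59 (SE 0.20, adjusted p = 6.45e-08) in *fbn3*-/- embryos and of 1.67 (SE 0.18, adjusted p = 2.12e-06) in WT embryos.

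Pyruvate kinase makes pyruvate and ATP in the last step of glycolysis, with M-type copies *pkma* and *pkmb* and the liver and red cell form *pklr*. *pkmb* had the largest rise of all 38 members in both genotypes. *pkmb* was at 289.6, 316, 311, 305 and 229.9 CPM in *fbn3*-/- embryos at 2 dpf, against 24.7, 15.1 and 11.3 CPM in *fbn3*-/- embryos at 1 dpf. Its values in WT embryos were 298, 272 and 297 CPM at 2 dpf, against 41.9, 29.6, 10.6 and 19 CPM at 1 dpf. Each 2 dpf library was far above all 1 dpf libraries, with a log2 fold change of 4.09 (SE 0.38, adjusted p = 4.17e-07) in *fbn3*-/- embryos and of 3.52 (SE 0.34, adjusted p = 7.15e-07) in WT embryos.

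*pkma* rose by 1.87 on the log2 scale in *fbn3*-/- embryos and 1.35 in WT embryos (adjusted p = 6.45e-07 and 1.19e-05). *pklr* did not pass, and its values followed the library numbers at both stages. It was at 45.9, 46.5 and 41.2 CPM in *fbn3*-/- embryos at 1 dpf. In WT embryos at 1 dpf it was at 74.3 and 70.5 CPM in replicates 1 and 2 with lower numbers. Replicates 4 and 5 with higher numbers had 3.06 and 6.12 CPM. At 2 dpf, *fbn3*-/- replicates 1, 2 and 3 with lower numbers had 41.8, 44.1 and 34.7 CPM. Replicates 4 and 5 of that group, with higher numbers, had 17 and 24.1 CPM. The WT libraries at 2 dpf had 64.5 CPM in replicate 1 with a lower number, and 18.1 and 19.3 CPM in replicates 2 and 3 with higher ones.

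Lactate dehydrogenase interconverts pyruvate and lactate, with an A form that dominates in skeletal muscle and a B form that dominates in heart. *ldha* rose by 1.65 on the log2 scale in *fbn3*-/- embryos and 0.95 in WT embryos (adjusted p = 4.83e-04 and 0.0192). *ldhbb* rose by 2.19 and 1.49 (adjusted p = 2.14e-04 and 0.00361), while its copy *ldhba* had 0.24 and -0.38 (adjusted p = 0.227 and 0.0731).

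The enzymes particular to gluconeogenesis included 2 of the 3 genes that fell in both genotypes. PEP carboxykinase, which turns oxaloacetate into PEP, has the cytosolic form *pck1* and the mitochondrial form *pck2*. *pck2* was at 77, 87.2, 72.5, 81.9 and 103 CPM in *fbn3*-/- embryos at 2 dpf, against 98.5, 176 and 142 CPM in *fbn3*-/- embryos at 1 dpf. In WT embryos it was at 92.2, 78.6 and 83.1 CPM at 2 dpf, against 125, 148, 102 and 173 CPM at 1 dpf. *pck2* was lower at 2 dpf with overlap in *fbn3*-/- embryos and without overlap in WT embryos, and had a log2 fold change of -0.72 (SE 0.18, adjusted p = 0.00282) in *fbn3*-/- embryos and of -0.69 (SE 0.19, adjusted p = 0.00649) in WT embryos. With lower library numbers only, the WT value was -0.51 (adjusted p = 0.198), and the call was lost. *pck1* had log2 fold changes of 0.07 in *fbn3*-/- embryos and 0.56 in WT embryos, neither of which was called.

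Fructose-1,6-bisphosphatase removes a phosphate from fructose 1,6-bisphosphate, with *fbp1a* and *fbp1b* named for the liver form and *fbp2* for the muscle form. *fbp2* was at 12.1, 14.1, 13.6, 11.3 and 9.11 CPM in *fbn3*-/- embryos at 2 dpf, against 2.31, 1.13 and 1.44 CPM in *fbn3*-/- embryos at 1 dpf. The WT embryos had 15.1, 18.4 and 13.1 CPM at 2 dpf, against 4.02, 2.85, 1.84 and 1.5 CPM at 1 dpf. *fbp2* rose in both genotypes without overlap, with a log2 fold change of 2.89 (SE 0.29, adjusted p = 8.21e-07) in *fbn3*-/- embryos and of 2.61 (SE 0.27, adjusted p = 1.21e-06) in WT embryos.

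*fbp1b* was at 85.9, 81.5, 63.8, 113 and 162 CPM in *fbn3*-/- embryos at 2 dpf, against 172, 229 and 155 CPM in *fbn3*-/- embryos at 1 dpf. Its values in WT embryos were 80.7, 67.8 and 122 CPM at 2 dpf, against 230.1, 219, 125 and 173 CPM at 1 dpf. The stages of *fbp1b* overlapped in *fbn3*-/- embryos and not in WT embryos, with a log2 fold change of -0.87 (SE 0.27, adjusted p = 0.0121) in *fbn3*-/- embryos and of -1.05 (SE 0.30, adjusted p = 0.00705) in WT embryos. The call in *fbn3*-/- embryos was lost without *fbn3*-/- replicate 2 at 1 dpf (adjusted p = 0.0741), and that in WT embryos without WT replicate 2 at 2 dpf (adjusted p = 0.0505). The copy *fbp1a* had log2 fold changes of 0.29 in *fbn3*-/- embryos and 0.38 in WT embryos and was not called.

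**Figure D2:**
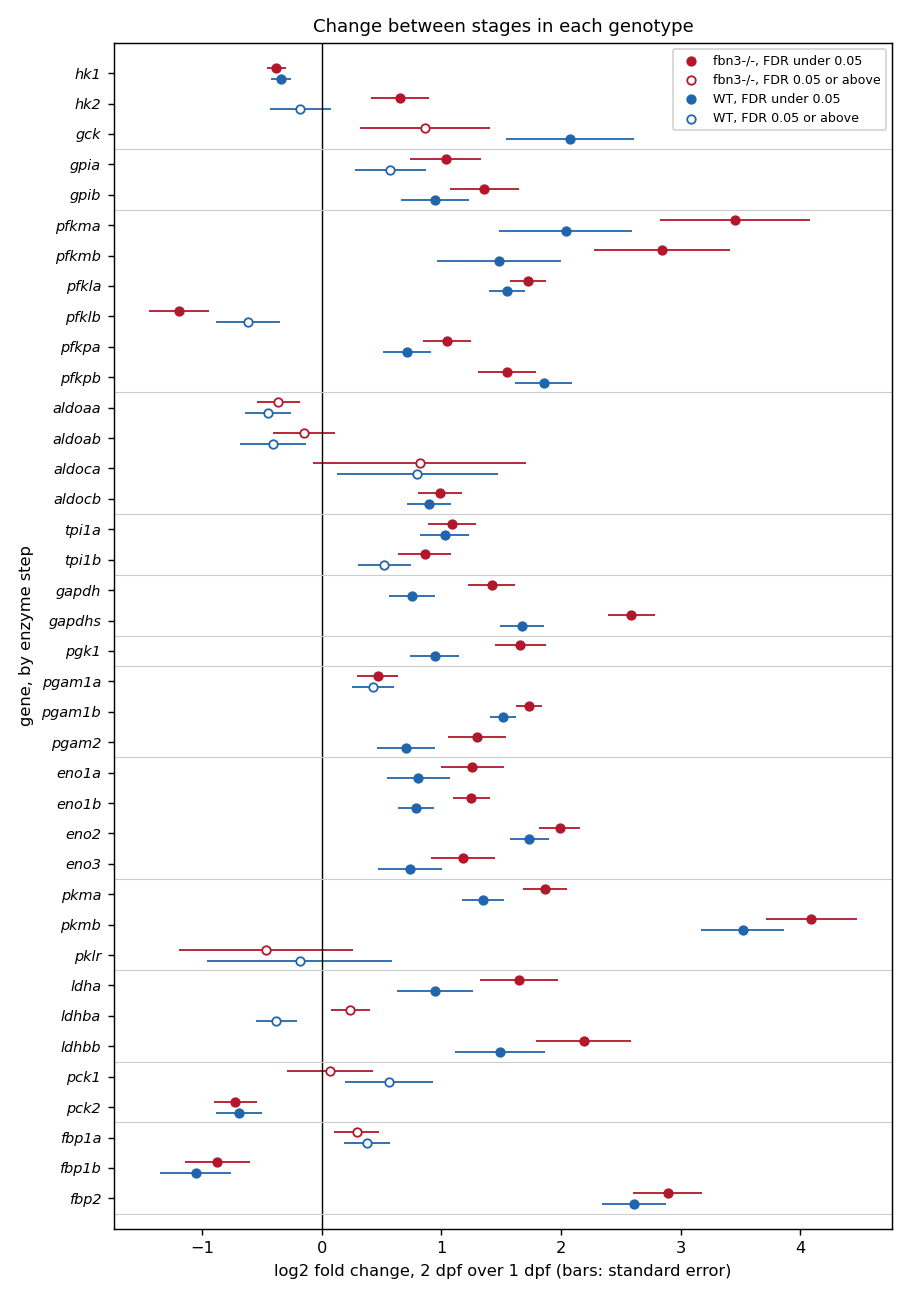
Log2 fold change of 2 dpf over 1 dpf for each of the 38 genes in fbn3-/- and WT embryos, with bars of ± 1 SE and filled points where the adjusted p was under 0.05. pkmb lies farthest to the right in both genotypes (4.09 and 3.52), and hk1, pck2 and fbp1b are filled on the left of 0 in both.

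**Figure D3:**
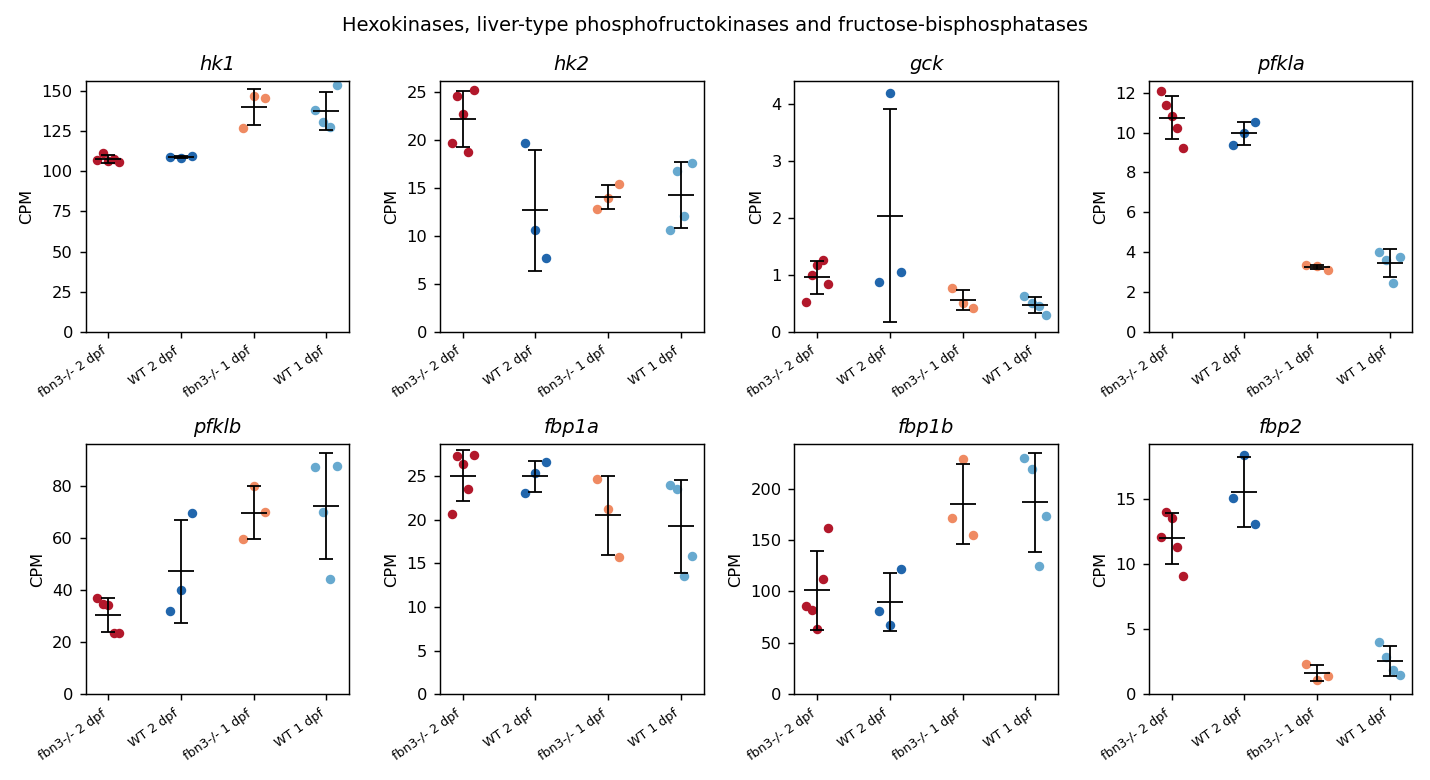
CPM of the hexokinase genes hk1, hk2 and gck, the liver-type phosphofructokinases pfkla and pfklb and the fructose-bisphosphatases fbp1a, fbp1b and fbp2, with 1 point per library and bars of the mean ± SD for fbn3-/- 2 dpf, WT 2 dpf, fbn3-/- 1 dpf and WT 1 dpf. pfkla is high at 2 dpf and pfklb is not, and fbp2 is high at 2 dpf while fbp1b is not.

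Markers of other tissues moved with stage as well, where 56.3% of all tested genes were called in *fbn3*-/- embryos and 54.6% in WT embryos. All 10 neuron markers rose in both genotypes, with median log2 fold changes of 2.03 in *fbn3*-/- embryos and 1.98 in WT embryos. Of 13 fast skeletal muscle markers, 12 rose in *fbn3*-/- embryos and 8 in WT embryos, with medians of 1.58 and 0.85. Their summed level was 35030 to 58750 CPM in *fbn3*-/- embryos and 36900 to 47760 CPM in WT embryos at 2 dpf, against 14240 to 26710 CPM in *fbn3*-/- embryos and 16040 to 45110 CPM in WT embryos at 1 dpf. Of 11 tested genes of a liver marker list, 7 rose and 2 fell in each genotype. That list shares *apobb.1* with the list for yolk syncytial layer and intestine, so it does not stand for liver alone. Its *fabp10a* averaged 0.03 and 0.02 CPM in *fbn3*-/- and WT embryos at 1 dpf, and 0.89 and 0.99 CPM at 2 dpf. Erythroid markers had 4 that rose and 1 that fell of 8 in *fbn3*-/- embryos, and 3 and 1 in WT embryos. Photoreceptor markers had 6 that rose and 1 that fell of 10 in each genotype. Of 6 tested markers of yolk syncytial layer and intestine, 3 rose and 2 fell in *fbn3*-/- embryos, and 1 and 2 in WT embryos. Heart markers mostly fell, with 1 that rose and 3 that fell of 5 in *fbn3*-/- embryos, and 1 and 4 in WT embryos. The part of these tissues in the changes of the glycolytic genes was not tested.

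At 1 dpf, no member passed the test between *fbn3*-/- and WT embryos, where 0.00425% of all tested genes were called, that is 1 gene, *fbn2b* itself. By fold change, 32 of the 38 members were lower in *fbn3*-/- embryos, with a median log2 fold change of -0.41 beside -0.03 over all tested genes, whose median size without sign was 0.16. An unadjusted p under 0.05 was found for 11 members, or 28.9%, beside 7.34% of all tested genes. That count was 5, 3 and 3 without *fbn3*-/- replicate 2, *fbn3*-/- replicate 3 or WT replicate 1, and 19, 20 and 18 without *fbn3*-/- replicate 1, WT replicate 4 or WT replicate 5. The median was -0.20 without WT replicate 1. DESeq2, run as an alternative, called *gapdhs* and *eno1b*. It called 68 genes in all, or 0.295% of those given an adjusted p.

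The member with the lowest p was *gapdhs* (ENSDARG00000039914), at 91.2, 91.6 and 66.7 CPM in *fbn3*-/- embryos, against 240.2, 174, 144 and 121 CPM in WT embryos. All 3 *fbn3*-/- values were below all WT values. The log2 fold change was -1.03 (SE 0.19, adjusted p = 0.206).

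The glycolytic enolase *eno1b* was at 2.62, 2.51 and 2.09 CPM in *fbn3*-/- embryos, against 4.57, 3.52, 3.38 and 3.99 CPM in WT embryos, again without overlap, with a log2 fold change of -0.68 (SE 0.17, adjusted p = 0.442). Phosphoglycerate kinase *pgk1*, the enzyme of the first ATP-forming step, was at 88.9, 82.4 and 54 CPM in *fbn3*-/- embryos, against 179, 104, 90.2 and 104 CPM in WT embryos. Its *fbn3*-/- values lay below the WT values, of which replicate 1 stood far above the others, and the log2 fold change was -0.67 (SE 0.21, adjusted p = 0.612). These 3 genes were the members without overlap at 1 dpf, where 5.88% of all tested genes had none.

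*pkma* was at 35.9, 29.7 and 25.5 CPM in *fbn3*-/- embryos, against 63, 32.2, 36.7 and 38.3 CPM in WT embryos, with a log2 fold change of -0.49 (SE 0.18, adjusted p = 0.636). The muscle phosphoglycerate mutase *pgam2* was at 48.1, 29.8 and 24.4 CPM in *fbn3*-/- embryos, against 79.1, 57.2, 47.7 and 31.7 CPM in WT embryos, with -0.66 (SE 0.25, adjusted p = 0.644). Both genes overlapped between the genotypes, and *fbn3*-/- replicate 3 was the lowest library for each. Without WT replicate 1 the log2 fold changes of *pgk1*, *pkma* and *pgam2* were -0.42, -0.24 and -0.43.

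The size of the difference depended on which WT libraries stood in it. In the fit of the libraries with lower numbers alone, 35 of 38 members were lower in *fbn3*-/- embryos. The median log2 fold change was -0.64, and that of *gapdhs* was -1.29. Set against the mean of WT replicates 4 and 5, which carry higher numbers, the *fbn3*-/- mean was lower for 21 of 38 members, with a median log2 ratio of -0.03. Among the WT libraries alone, those with lower numbers were higher than those with higher numbers for 33 of 38 members, with a median log2 ratio of 0.58. For these counts of 21 and 33 members, the shares of all tested genes were not computed, so a shift particular to the members is not shown. WT replicate 1 was the highest of the 7 libraries at 1 dpf for 27 members, *fbn3*-/- replicate 3 the lowest for 17 and WT replicate 4 the lowest for 10. No *fbn3*-/- library at 1 dpf has a higher number, so that a within-set value exists for the lower numbers only. A fit of all libraries with a term for the library-number set, the same in every group, was also made. There 33 of 38 members were lower in *fbn3*-/- embryos at 1 dpf, and none was called. The median log2 fold change was -0.48, beside -0.02 over all tested genes.

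All 13 muscle markers were lower in *fbn3*-/- embryos at 1 dpf, with a median log2 fold change of -0.57 and none called. Their summed level was 26710, 19070 and 14240 CPM in *fbn3*-/- replicates 1, 2 and 3, and in WT embryos 45110 and 28000 CPM in replicates 1 and 2 and 21730 and 16040 CPM in replicates 4 and 5. The marker sum of *fbn3*-/- replicate 1 was above those of WT replicates 4 and 5. That *fbn3*-/- library was below both in *gapdhs*, *eno1b*, *pgk1* and *pkma*, and above both in *pgam2*. These 5 genes were picked for the lowest p in this same contrast, so low *fbn3*-/- values were part of their selection. Other members lay on either side, such as *gapdh* and *eno3* above both WT libraries and *pck1* below both. The comparison also crosses the sets of library numbers. The 10 neuron markers were lower in *fbn3*-/- embryos as well, with a median of -0.25 and none called. The part of muscle content and library number in the 1 dpf values was not tested.

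**Figure D4:**
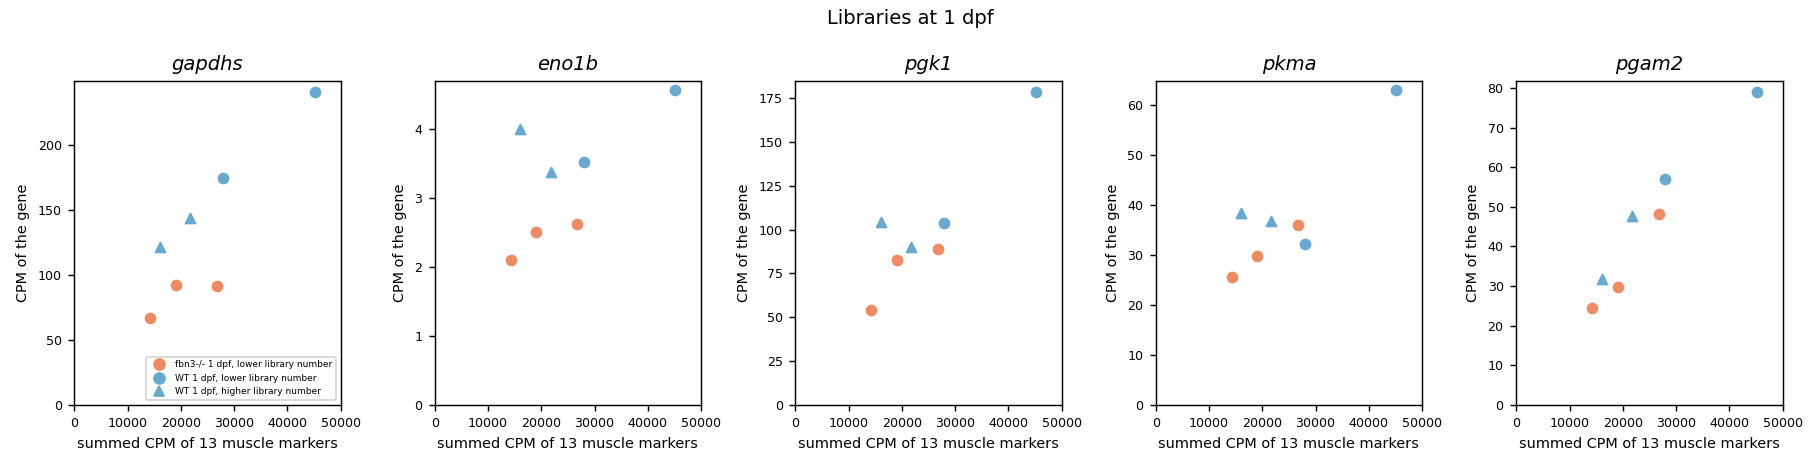
CPM of gapdhs, eno1b, pgk1, pkma and pgam2 in the 7 libraries at 1 dpf, against the summed CPM of the 13 fast muscle markers in the same library, with colour for genotype and marker shape for library numbers. WT replicate 1 has the highest marker sum (45110 CPM) and fbn3-/- replicate 3 the lowest (14240 CPM).

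At 2 dpf, again no member passed the test between *fbn3*-/- and WT embryos, where 0.233% of all tested genes, 55 in number, were called. Lower values in *fbn3*-/- embryos were found for 24 of 38 members, the median log2 fold change was -0.06 beside 0.01 over all tested genes, and 4 members had an unadjusted p under 0.05, or 10.5%, beside 10.4% of all tested genes. That count was 2 without WT replicate 3 at 2 dpf, and 7 without WT replicate 1 at 2 dpf or WT replicate 4 at 1 dpf. DESeq2 called no member either.

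*hk2* had the lowest p, at 19.6, 24.6, 22.6, 18.8 and 25.2 CPM in *fbn3*-/- embryos, against 19.7, 10.6 and 7.63 CPM in WT embryos. WT replicate 1 lay within the *fbn3*-/- range, and WT replicates 2 and 3 lay below it. The log2 fold change was 0.82 (SE 0.24, adjusted p = 0.24), and the log2 ratio of the group means was 0.18 within the lower and 1.27 within the higher library numbers. Without WT replicate 1, *hk2* was called (log2 fold change 1.28, adjusted p = 0.0129), the one member call that leaving out a library made at 2 dpf. In that fit 1.91% of all tested genes, 455 in number, were called.

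*pck1* was at 40.6, 16.1, 18.1, 15.8 and 19.8 CPM in *fbn3*-/- embryos, against 19.7, 33.4 and 69.5 CPM in WT embryos, with overlap, and had a log2 fold change of -0.90 (SE 0.35, adjusted p = 0.385). *pfklb* had -0.63 (SE 0.25, adjusted p = 0.398), and *gck* had -1.01 (SE 0.42, adjusted p = 0.419), both from overlapping values. These values rested on single WT libraries, since *gck* had 0.014 without WT replicate 2, and *pck1* and *pfklb* had -0.28 and -0.24 without WT replicate 3. *pgam1a* was at 47.7, 39.4, 34.8, 36.8 and 45.2 CPM in *fbn3*-/- embryos, against 48.9, 45 and 60.8 CPM in WT embryos, with overlap and a log2 fold change of -0.34 (SE 0.17, adjusted p = 0.503), or -0.21 without WT replicate 3.

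The values did not overlap between genotypes at 2 dpf for *aldocb* and *gapdh*, beside 6.19% of all tested genes. *aldocb* was at 145, 141, 128, 128 and 129 CPM in *fbn3*-/- embryos, against 148, 159 and 203 CPM in WT embryos, lower in each *fbn3*-/- library, with a log2 fold change of -0.34 (SE 0.17, adjusted p = 0.52). *gapdh* was at 1533, 1663, 1517, 1865 and 1771 CPM in *fbn3*-/- embryos, against 1386, 1401 and 1411 CPM in WT embryos, higher in each *fbn3*-/- library, with 0.25 (SE 0.19, adjusted p = 0.656). *gapdhs*, the member with the lowest p at 1 dpf, had a log2 fold change of -0.12 (SE 0.17, adjusted p = 0.85) at 2 dpf.

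**Figure D5:**
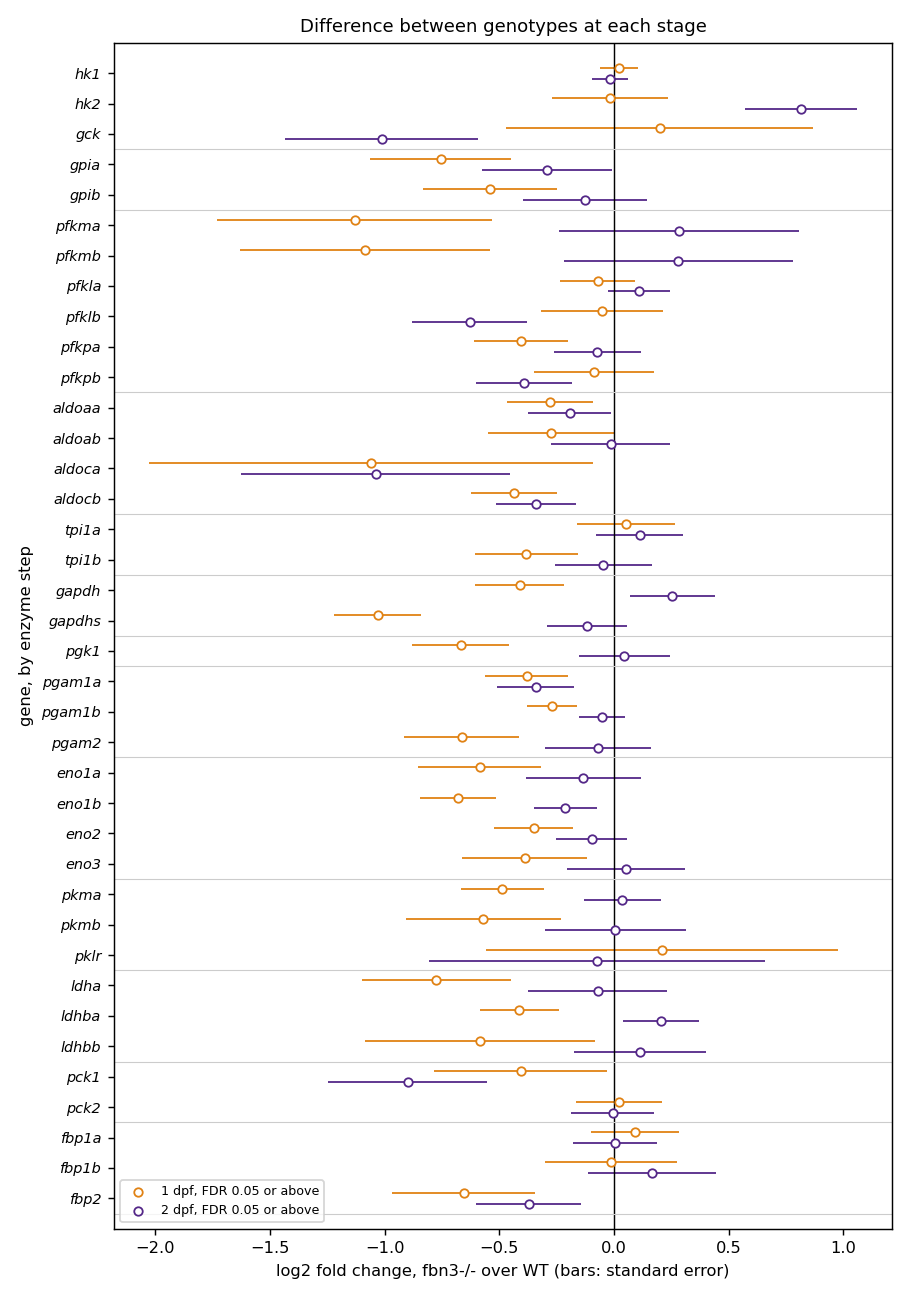
Log2 fold change of fbn3-/- over WT embryos for each of the 38 genes at 1 dpf and at 2 dpf, with bars of ± 1 SE and open points where the adjusted p was not under 0.05. All points are open, with 32 of 38 below 0 at 1 dpf and 24 of 38 at 2 dpf.

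Whether the genotype difference itself changed with stage was tested with the interaction term of the same fit. No member was called, where 0.00425% of all tested genes were called, that is 1 gene, *cart3*. An unadjusted p under 0.05 was found for 6 members, or 15.8%, beside 5.51% of all tested genes. That count was 2 without *fbn3*-/- replicate 3 at 1 dpf, 3 without *fbn3*-/- replicate 2 at 1 dpf, WT replicate 1 at 1 dpf or WT replicate 2 at 2 dpf, and 10 without WT replicate 4 at 1 dpf. The median interaction was 0.31 over the members and 0.05 over all tested genes, a positive value standing for a more positive signed stage change in *fbn3*-/- embryos than in WT embryos. Without WT replicate 1 at 1 dpf the medians were 0.05 and 0.04, and without *fbn3*-/- replicate 3 at 1 dpf 0.19 and 0.04. They were 0.58 and 0.01 with lower library numbers only, and 0.56 and 0.03 with the replicate block. The lowest p belonged to *gapdhs*, with 0.91 (SE 0.26, adjusted p = 0.805), followed by *ldhba*, *pgk1*, *gapdh* and *hk2* with 0.62, 0.71, 0.67 and 0.83 (adjusted p = 0.889 for each). Without WT replicate 1 at 1 dpf the values of *pgk1* and *gapdh* were 0.45 and 0.44, and without WT replicate 1 at 2 dpf that of *hk2* was 1.30. With lower library numbers only, the interaction of *hk2* was 0.10. DESeq2 called no member here. *ldhba* was at 441, 514, 416, 449 and 595 CPM in *fbn3*-/- embryos at 2 dpf, against 455, 418 and 355 CPM in *fbn3*-/- embryos at 1 dpf. In WT embryos it was at 419, 412 and 425 CPM at 2 dpf, against 658, 659, 461 and 400.4 CPM at 1 dpf. The stages of *ldhba* overlapped in both genotypes. *gapdh* was at 753, 579 and 541 CPM in *fbn3*-/- embryos at 1 dpf, against 1193, 842, 717 and 568 CPM in WT embryos at 1 dpf, with overlap. *pgk1* was at 234, 233, 219.5, 279 and 220 CPM in *fbn3*-/- embryos at 2 dpf, against 227, 206 and 256 CPM in WT embryos at 2 dpf, with overlap. The muscle markers had positive interactions for 13 of 13 genes, with a median of 0.75 and none called. The interaction shares its libraries with the genotype and stage comparisons and is not a separate measurement.

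Genes next to the pathway were described through lists of their own. Their stage counts stand beside 56.3% of all tested genes called with stage in *fbn3*-/- embryos and 54.6% in WT embryos. Of 14 glucose transporter genes, 5 rose and 4 fell with stage in *fbn3*-/- embryos, and 2 rose and 4 fell in WT embryos. *slc2a1a*, a GLUT1 copy, was at 5.20 ± 1.38 CPM in *fbn3*-/- embryos at 2 dpf, against 66.4 ± 13.6 CPM in *fbn3*-/- embryos at 1 dpf (SD, n = 5 and 3), and at 4.18 ± 1.65 CPM in WT embryos at 2 dpf, against 34.6 ± 4.55 CPM in WT embryos at 1 dpf (SD, n = 3 and 4). It fell by 3.68 on the log2 scale in *fbn3*-/- embryos and by 3.06 in WT embryos, while its copy *slc2a1b* rose by 0.97 and 0.83. *slc2a5*, named for the fructose transporter GLUT5, rose by 3.41 and 4.53 at levels of at most 1.68 CPM in *fbn3*-/- and 3.19 CPM in WT embryos.

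Of 9 tested genes of the pentose phosphate pathway, the NADPH- and ribose-forming branch off glycolysis, 1 rose and 5 fell in each genotype. The riser was the transketolase copy *tkta*, at 23.7 ± 9.12 CPM in *fbn3*-/- embryos at 2 dpf, against 1.6 ± 1.12 CPM in *fbn3*-/- embryos at 1 dpf (SD, n = 5 and 3), and at 23 ± 2.47 CPM in WT embryos at 2 dpf, against 2.8 ± 1.64 CPM in WT embryos at 1 dpf (SD, n = 3 and 4). Its copy *tktb* fell by 1.18 on the log2 scale in *fbn3*-/- embryos and by 1.32 in WT embryos. *rpia*, the ribose 5-phosphate isomerase, fell by 1.59 and 1.82 (adjusted p = 3.35e-07 and 3.31e-07).

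The lists around the glycolytic steps had calls in both directions with stage, as had all tested genes. Of all tested genes, 29.2% rose and 27% fell in *fbn3*-/- embryos, and 27% rose and 27.6% fell in WT embryos. Among 11 tested regulators of flux, 6 rose and 2 fell in *fbn3*-/- embryos, and 3 rose and 1 fell in WT embryos. The bisphosphoglycerate mutase *bpgm* rose by 1.33 on the log2 scale in *fbn3*-/- embryos and 1.11 in WT embryos, while *pfkfb1*, a bifunctional enzyme that makes and removes fructose 2,6-bisphosphate, fell by 0.60 and 0.94. Of 6 tested glucose-6-phosphatase genes, which include transporters of glucose 6-phosphate, 2 rose and 2 fell in each genotype. Both that rose carry the symbol *slc37a4b*, a pair of table entries whose reads may not be separable, and the copy *slc37a4a* fell by 0.79 on the log2 scale in *fbn3*-/- embryos and by 0.89 in WT embryos.

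Among 14 genes of the pyruvate dehydrogenase complex and its kinases, 6 rose and 1 fell in *fbn3*-/- embryos, and 4 rose and none fell in WT embryos. The kinase *pdk3a*, which inactivates the complex, rose by 1.42 on the log2 scale in *fbn3*-/- embryos and 1.43 in WT embryos. Among 9 genes of pyruvate and lactate transport and pyruvate carboxylase, 3 rose and 4 fell in *fbn3*-/- embryos, and 2 rose and 4 fell in WT embryos. The monocarboxylate transporter *slc16a1a* rose by 1.43 and 1.63, and the pyruvate carboxylase *pcxb*, the enzyme that opens gluconeogenesis from pyruvate, fell by 1.17 and 1.45.

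Hypoxia-inducible factors are known regulators of glycolytic genes. Of 14 tested genes of these factors and their controls, 5 rose and none fell in *fbn3*-/- embryos, and 5 rose and 1 fell in WT embryos. *hif1aa* rose by 1.64 on the log2 scale in *fbn3*-/- embryos and 1.17 in WT embryos, and *hif1al* was the gene that fell in WT embryos, by 0.34. No gene of these lists was called between genotypes at either stage.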

How the data were processed

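Stranded total RNA libraries were made from pools of 10 whole embryos and sequenced on an Illumina NovaSeq. According to the labels and their processing notes, the authors trimmed the reads (Trim Galore 0.6.6), aligned them to GRCz11 with STAR 2.7.6a and counted them per gene with featureCounts (Subread 2.0.0), and they deposited raw read counts per gene without normalization. The strand setting of the counting is not given in the sources used here, and overlapping or near-identical copies may share reads. Of 23 count columns, the 15 whose names match a listed sample were used and 8 were not used; WT replicate 3 at 1 dpf (1 of 16 samples) matched no column and is not analysed here.

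The 38 members were matched by gene name. Members and gene lists were chosen with earlier results of these data known. Genes were kept by filterByExpr (minimum count 10, minimum total 15), and counts were scaled by TMM. One fit with a coefficient for each of the 4 groups was made with edgeR 4.0.16 (R 4.3.3), and each contrast was tested two-sided with the quasi-likelihood test and Benjamini-Hochberg adjustment over all 23555 genes. The fit was tested on simulated data. Library values were named for every member among the 5 lowest p-values of a genotype or interaction contrast, up to 5 of the largest called rises and falls of each stage contrast, and paralogues called in opposite directions. Examples for other lists were taken from the lowest adjusted p-values in each direction. Alternatives were other scalings, filters and sets of libraries, limma-voom (limma 3.58.1), DESeq2 1.42.0 and a likelihood ratio test. Others added a term for the library-number set or a replicate block. Total counts per library, given with the results, set the counting error; over all genes, replicates differed by more than counting error.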

Additional observations from a re-analysis of the deposited data

Results flagged for a closer look

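In groups of 4 or 5 libraries, the highest or lowest value of a member stood apart from the rest, by Dixon's criterion, in 6 of 76 sets of values, where chance gives about 1 in 20. In *fbn3*-/- embryos at 2 dpf, replicate 4 was high for *pgk1* (279.4 CPM, the nearest other library at 233.5 CPM). Replicate 1 of the same group stood apart for 3 genes, with 59.95 CPM for *pgam1b* (nearest 52.79 CPM), 2.166 CPM for *ldhbb* (nearest 1.277 CPM) and 40.58 CPM for *pck1* (nearest 19.83 CPM). In WT embryos at 1 dpf, replicate 1 was high for *pgk1* (178.6 CPM, nearest 104.3 CPM) and *eno2* (12.53 CPM, nearest 9.34 CPM). The same WT library had the highest sum of muscle markers at 1 dpf. No cause was tested.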

How the results depend on the processing

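Results were recomputed under 26 alternatives (25 for the interaction, whose own libraries are all of those fitted), 15 of which left out a library each. Among 931 values of the genes described by library, 907 kept their direction and their side of the threshold, 15 were no longer called and 5 became called. The other 4, none of them called, changed sign in the comparison of genotypes at 2 dpf: *gck* (-1.01) had 0.014 without WT replicate 2 (-1.36 to 0.014 when a library was left out), and with lower library numbers only *gck*, *pck1* and *pfklb* had 0.035, 0.31 and 0.12, the cause of which was not tested. At 1 dpf the number of members called between genotypes was 0 in the main fit. DESeq2 called 2 (*gapdhs*, *eno1b*) and the likelihood ratio test called 1 (*gapdhs*). These alternatives called 68 and 41 genes in all, against 1 in the main fit. With lower library numbers only, an alternative chosen after seeing the data, the log2 fold change of *gapdhs* was -1.29. Calls of that fit at 1 dpf are not listed, since it leaves a single WT library at 2 dpf. At 2 dpf the number of members called between genotypes was 0 to 1 when a library was left out. The 1 was *hk2* without WT replicate 1, where 1.91% of all tested genes were called. The stage count in WT embryos was 26, but 13 with lower library numbers only, where a single WT library at 2 dpf remained and is assumed to vary like the other groups. Fewer of all tested genes were called with stage in WT embryos in that fit as well, so the lower count is not shown to be particular to the members. Leaving out a library gave 24 to 30 calls in WT embryos and 27 to 31 in *fbn3*-/- embryos. Those fits called 46% to 54.5% of all tested genes in WT embryos and 46.4% to 57% in *fbn3*-/- embryos. Without TMM scaling the median log2 stage change of all genes in WT embryos was 0.11 in place of -0.04, and *hk1* was not called there (adjusted p = 0.114). With the replicate number as a block, 29 members were called with stage in each genotype and none in the other contrasts. That fit called 48.6% of all tested genes with stage in WT embryos and 55.1% in *fbn3*-/- embryos. There 15 in place of 24 members were lower in *fbn3*-/- embryos at 2 dpf. Same-numbered libraries correlated between -0.22 and 0.30 in their deviations, not all over 0.1, so that the numbers were not taken to pair the samples.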
